A study of Mus musculus with 6 samples.

Results

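The endoplasmic reticulum folds and quality-checks every protein that a cell secretes or places in its membranes, and 33 genes of this machinery were followed in mouse intestinal epithelial cells. They were chosen by name, as chaperones, disulfide enzymes, protein translocation subunits, degradation factors and stress sensors, and all 33 were among the 18159 genes of the count table. All 33 also passed the filter on low counts that left 13558 genes for testing. RNA came from 3 libraries of wild-type mice and 3 libraries whose titles say Git2-knockout, while the genotype field of the latter says Git2 knockdown. The cells are labelled intestinal epithelial cells, the series' design text calls them enteroids (epithelial organoids) of mice aged 12 days, and no treatment, strain or altered part of Git2 is given. Whether replicates are different mice or cultures is not stated, and p-values therefore describe the spread among these samples only, which could be technical.

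When unfolded proteins build up in the endoplasmic reticulum, the sensors IRE1 (genes Ern1 and Ern2), ATF6 and PERK (Eif2ak3) start the unfolded protein response. IRE1 splices the Xbp1 mRNA so that it encodes an active transcription factor, cleaved ATF6 moves to the nucleus, and PERK phosphorylates eIF2alpha and slows translation. The nuclear factors raise transcription of chaperones and of genes for endoplasmic reticulum-associated degradation (ERAD), the export of misfolded proteins to the proteasome. In the gut this machinery is best known from goblet and Paneth cells, which secrete large amounts of protein. Counts per gene, as used here, do not separate spliced from unspliced Xbp1.

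Many of these genes share a promoter sequence through which ATF6 and XBP1 act, the endoplasmic reticulum stress element (ERSE). It was searched as CCAAT, any 9 bases and CCACG, on both strands and from 250 bases before to 50 bases after the RefSeq gene start of the GRCm38.p6 assembly. A promoter was matched for 27 members and none for Atf6, Derl1, Ern2, Hyou1, Manf and Sec61a1. The exact ERSE letters were in the promoters of 9 of the 27 members (33.3%) and of 37 of all 27025 genes with a promoter (0.137%). The shorter ERSE-II, searched as ATTGG, any base and CCACG, which ends in the same letters as ERSE, was in those of 2 members, Dnajb11 and Herpud1, and of 12 of all genes (0.0444%). The XBP1 site core TGACGTGG, whose last letters are CCACG read on the other strand, was in 0 of the 27 member promoters and in 0.714% of all genes. The ATF4 composite site TGATGNAAT was in 0 of the 27 and in 1.08% of all genes. A match is a description of the letters and does not show binding. Since the element is known as one that many of these genes share, its larger share among the members is not an independent result. The matched sites are shown because they are the feature that 11 members have in common, written 5′ to 3′ on the strand that carries the motif, with the fixed letters in capitals:
Hspa5: CCAATcggaggcctCCACG
Hsp90b1 (nearer the start): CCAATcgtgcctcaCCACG
Hsp90b1 (farther): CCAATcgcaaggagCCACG
Calr: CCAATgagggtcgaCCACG
Canx: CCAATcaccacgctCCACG
Pdia6: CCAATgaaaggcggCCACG
Creld2: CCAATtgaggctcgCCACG
Dnajc3: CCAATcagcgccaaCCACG
Syvn1: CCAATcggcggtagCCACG
Derl3: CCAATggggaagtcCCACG
Herpud1: ATTGGgCCACG
Dnajb11: ATTGGcCCACG

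The 9 nucleotides between the fixed letters differed in all 10 ERSE sites. Where these sites lie is shown by 4 promoters, each the 250 bases before the RefSeq gene start on the strand of the gene, with ERSE or ERSE-II letters in capitals. Hspa5, chr2:34771840-34772089, plus strand, carries its ERSE from -65 to -47 relative to the start, the base of the start being 0. Creld2, chr15:88819396-88819645, plus strand, carries it on the opposite strand, where it reads as CGTGG and ATTGG. Herpud1, chr8:94386179-94386428, plus strand, carries the ERSE-II from -52 to -42. Dnajb9, chr12:44210069-44210318, minus strand, is shown as the member with the largest difference between the groups, and neither pattern was found in it:
Hspa5: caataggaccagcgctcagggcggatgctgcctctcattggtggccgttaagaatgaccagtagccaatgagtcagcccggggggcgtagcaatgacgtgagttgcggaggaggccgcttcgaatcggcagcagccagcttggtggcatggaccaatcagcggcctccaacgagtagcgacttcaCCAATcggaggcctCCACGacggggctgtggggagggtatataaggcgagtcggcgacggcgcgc
Creld2: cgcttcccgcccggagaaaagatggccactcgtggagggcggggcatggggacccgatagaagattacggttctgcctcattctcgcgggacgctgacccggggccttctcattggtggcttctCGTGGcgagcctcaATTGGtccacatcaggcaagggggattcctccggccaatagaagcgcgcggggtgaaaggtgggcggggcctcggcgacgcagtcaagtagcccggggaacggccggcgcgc
Herpud1: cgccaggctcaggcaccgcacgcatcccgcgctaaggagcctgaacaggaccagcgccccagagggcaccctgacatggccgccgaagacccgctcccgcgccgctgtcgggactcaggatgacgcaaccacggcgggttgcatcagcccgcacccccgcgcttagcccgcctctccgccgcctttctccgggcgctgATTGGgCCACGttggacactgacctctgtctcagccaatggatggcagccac
Dnajb9: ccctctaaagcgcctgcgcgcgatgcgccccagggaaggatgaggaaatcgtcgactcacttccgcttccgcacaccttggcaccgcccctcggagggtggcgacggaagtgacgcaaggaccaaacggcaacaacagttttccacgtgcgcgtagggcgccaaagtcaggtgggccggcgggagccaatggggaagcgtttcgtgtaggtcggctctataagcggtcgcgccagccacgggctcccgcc

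**Figure D1:**
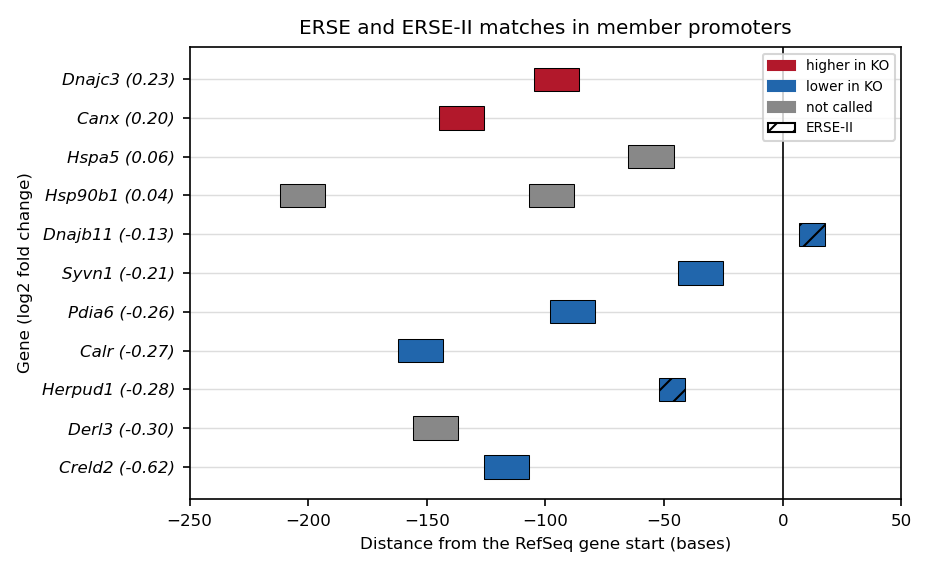
Positions of exact ERSE (plain bars) and ERSE-II (hatched bars) matches relative to the RefSeq gene start, from 250 bases before to 50 after it, for the 11 members that hold one, ordered by log2 fold change (in brackets). Blue bars are the 6 genes that fell in the libraries labelled Git2-knockout, red bars the 2 that rose and grey bars the 3 that were not called.

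Libraries held 16284414 to 19106581 estimated reads, and those labelled Git2-knockout held fewer than the wild-type ones. Git2, the targeted gene, was at 22.2, 23.7 and 22.7 CPM (reads per 1000000 reads, scaled by TMM) in wild-type and at 17.4, 15.5 and 16.8 CPM in the libraries labelled Git2-knockout, so its transcript was still present. Directions below are those of the labels. Of 8 general epithelial genes 6 fell and 0 rose (median log2 fold change -0.19), and they summed to 9371 to 9773 CPM in wild-type and 8466 to 8688 CPM in the other libraries, so both groups held abundant epithelial RNA. Of 10 enterocyte genes 8 fell and 2 rose. Genes of fibroblasts summed to 36.5 to 40.9 CPM in wild-type and 120.4 to 125 CPM in the other libraries, with 9 of 9 tested members of the list higher. Endothelial genes summed to 21.8 to 22.6 and 47.8 to 53.4 CPM, with 8 of 8 higher. Of 10 goblet cell genes 6 fell and 0 rose, and of 9 Paneth cell genes 6 fell and 1 rose. Among all genes tested 29.6% rose and 27.4% fell. With a trend in transcript length removed from each library, 4 Paneth cell genes were higher and 0 lower (median 0.09). In that fit 1 epithelial gene was higher and 4 lower, and 1 goblet cell gene was higher and 5 lower. With length and GC trends removed, 3 epithelial genes were higher and 3 lower, and 1 goblet cell gene was higher and 6 lower. Of the Paneth cell genes 3 were then higher and 1 lower. The goblet list holds the member Ern2. Of 9 enteroendocrine genes 5 rose and 2 fell, and of 3 tested acinar genes 3 fell. With the length trend removed 7 enteroendocrine genes were higher and 0 lower, as with length and GC trends removed. Macrophage genes summed to 234 to 239 CPM in wild-type and to 137 CPM in each other library, with 2 of 8 higher and 1 lower. Of 7 tested B and plasma cell genes 4 fell and 0 rose (median -0.91), and the list, which holds the member Derl3, summed to 18.0 to 19.3 and 8.13 to 9.1 CPM. Its defining plasma cell markers were near 0 in both groups, with Jchain at 0.0534 to 0.266 CPM, Mzb1 at 0.0586 to 0.479 CPM and Tnfrsf17 at 0 in 5 of 6 libraries. The part of these cell types in the results below was not tested, and in bulk RNA fewer cells of a type and less RNA per cell cannot be told apart.

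The most abundant members were folding genes and the sensor proteins were among the lowest. Levels of different genes were compared in TPM, the authors' values per transcript length. The disulfide isomerase P4hb (1719.7 ± 8.27 TPM in wild-type, SD, n = 3), the lectin chaperone Calr (1404 ± 7.37) and the Hsp70 chaperone Hspa5 or BiP (1011 ± 23.1) led the list. The sensors followed the order Eif2ak3 (28.1 ± 0.815 TPM), Atf6 (15.2 ± 0.859), Ern1 (7.66 ± 0.0819) and Ern2 (7.59 ± 0.372), the latter pair differing by less than the spread between replicates. Xbp1, at 108 ± 4.03 TPM, stood well above the kinases that splice it and above the folding genes Creld2 (71.2 ± 3.17), Hyou1 (68.2 ± 0.371), Sdf2l1 (51.5 ± 0.496) and Dnajc3 (39.1 ± 1.77). Derl3 was the lowest member, at 1.17 ± 0.340 TPM, from 8 to 18 estimated reads per library.

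**Figure D2:**
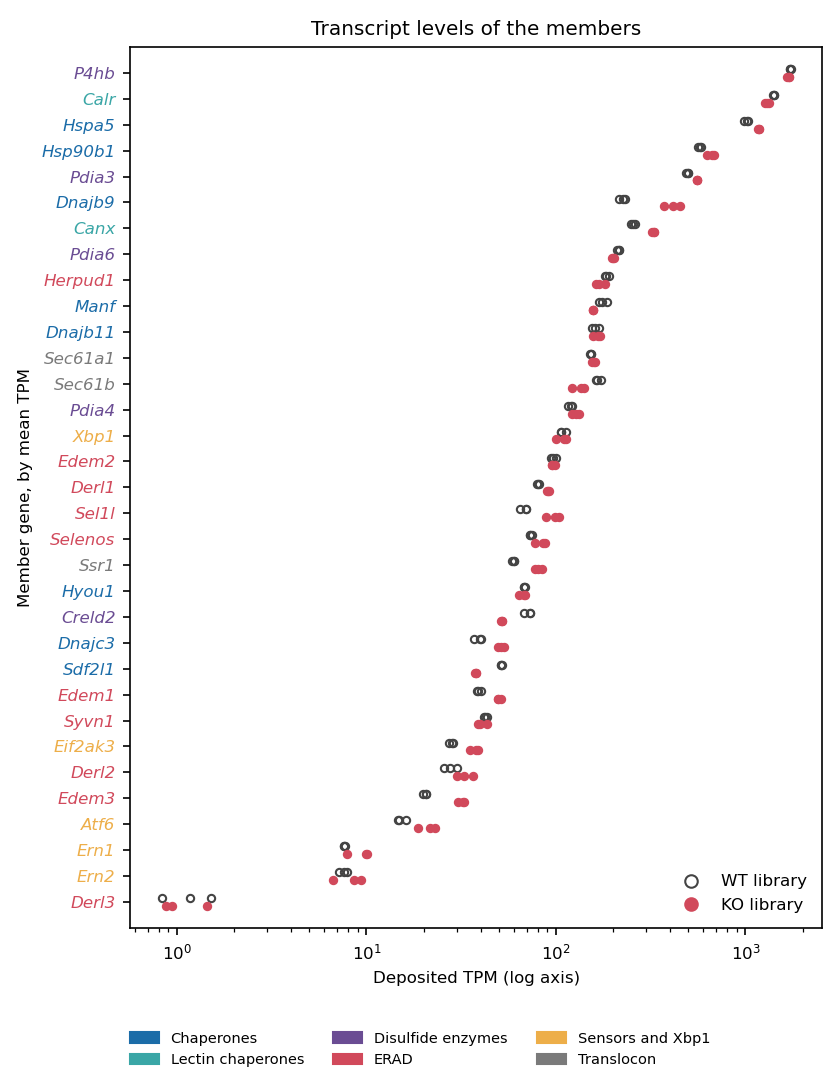
Deposited TPM of each member in each library on a log axis, ordered by mean level, with open circles for the 3 wild-type libraries and filled circles for the 3 labelled Git2-knockout; label colours give the role. Levels span from about 1 TPM (Derl3) to 1719.7 TPM (P4hb, wild-type mean), with P4hb, Calr and Hspa5 at the top and Ern1, Ern2 and Derl3 at the bottom.

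Summed over the 15 folding genes (chaperones, lectin chaperones and disulfide enzymes), the wild-type libraries held 6645, 6605 and 6497 TPM and the libraries labelled Git2-knockout 6917, 6923 and 7071 TPM. For the 15 ERAD genes and sensors the sums were 809.8, 797 and 799 TPM in wild-type and 879, 874 and 884 TPM in the others. The ratio of the first sum to the second was 8.13 to 8.29 in wild-type and from 7.87 to 8.0 in the other libraries. For both sums every library labelled Git2-knockout lay above every wild-type library. On the TPM scale the median gene of the whole table was also higher there, by 0.14 on the log2(TPM + 1) scale. The median difference on that scale was 0.02 for the folding genes and 0.17 for the ERAD genes and sensors.

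By gene, the machinery did not share 1 direction. On counts, 9 of the 33 members rose and 14 fell in the libraries labelled Git2-knockout by edgeR's quasi-likelihood test at a Benjamini-Hochberg adjusted p of 0.05. Shares were 27.3% higher and 42.4% lower, beside 29.6% higher and 27.4% lower among all genes tested. Values of the groups did not overlap for 24 members (72.7%, against 62.9% of all genes tested). The median size of the log2 fold change, sign aside, was 0.20 for the members and 0.25 for all genes. Of the 15 folding genes 8 fell and 3 rose, with a median log2 fold change of -0.13, and of the 15 ERAD genes and sensors 5 rose and 4 fell, with a median of 0.02, as for all genes (0.02). With the length trend removed both medians were -0.03 (2 folding genes higher and 6 lower, 4 and 2 of the other set). With length and GC trends removed they were -0.13 and -0.03, with 1 folding gene higher and 10 lower, and 4 and 2 of the other set. The difference between the 2 sets of 15 was not tested. With limma-trend on log2(TPM + 1) the split over the 33 members turned to 16 higher and 7 lower (beside 42.4% and 13.9% of all genes), where all genes went from 51.9% to 75.3% of calls upward.

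**Figure D3:**
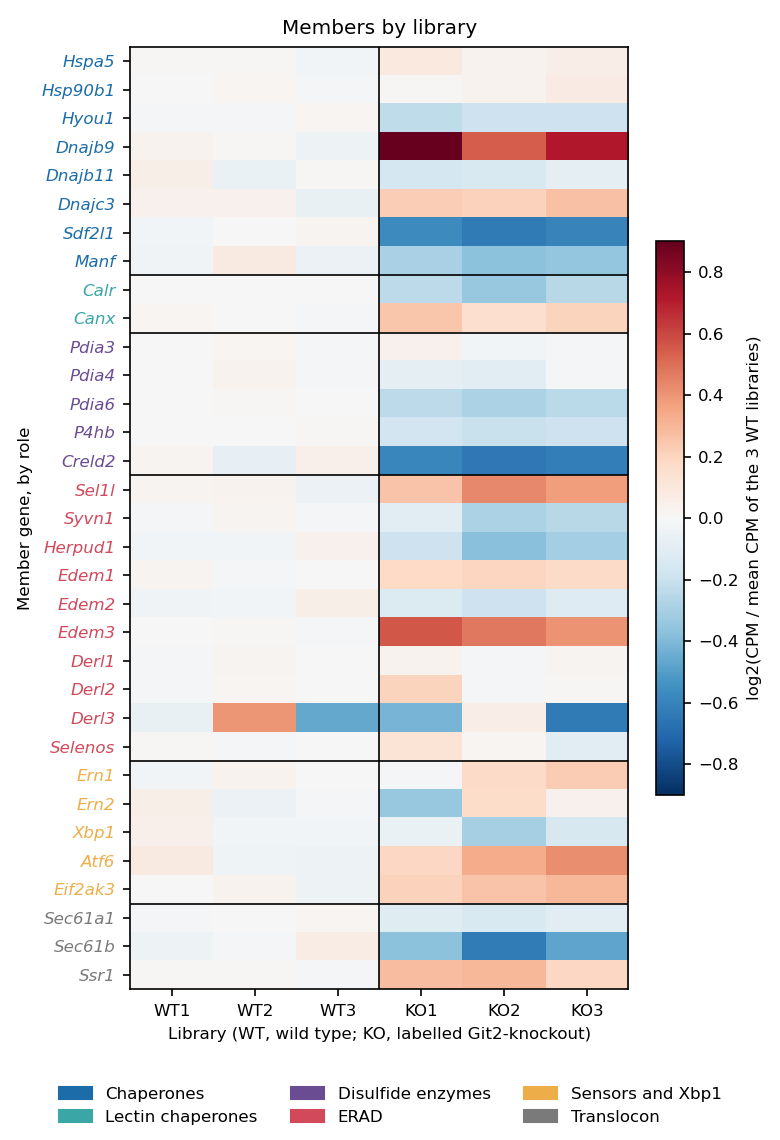
Each member's CPM in each library as log2 of its ratio to the mean of the 3 wild-type libraries, grouped by role (label colours, black lines), red for higher and blue for lower. Dnajb9 is the reddest row in all 3 libraries labelled Git2-knockout, Creld2 and Sdf2l1 are among the bluest, and Derl3 varies as much within the groups as between them.

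The largest difference among the chaperones was in Dnajb9 (ERdj4), a BiP co-chaperone that also holds IRE1 inactive. It was at 205, 202 and 195 CPM in wild-type and at 374, 293 and 331 CPM in the libraries labelled Git2-knockout. The lowest of the latter lay well above the highest of the former, although the 3 differed among themselves more than the wild-type ones. The rise had an SE of 0.08 around a log2 fold change of 0.73 (edgeR adjusted p = 2.66e-05), and took Dnajb9 to 165% of wild-type (95% interval 147% to 186%). Its partner Hspa5 was at 1262, 1264 and 1230.1 CPM and at 1328, 1280.1 and 1304 CPM, a log2 fold change of 0.06 that was not called (edgeR adjusted p = 0.160). The 95% interval of Hspa5 ran from 99.0% to 109.6% of wild-type, although its groups did not overlap. It was called higher with library totals in place of TMM (0.094, edgeR adjusted p = 0.0275) and on the authors' TPM, at 1011 ± 23.1 and 1176 ± 9.8 TPM (0.22 on log2(TPM + 1), limma-trend adjusted p = 9.59e-05). Hsp90b1 (GRP94), the Hsp90 chaperone of the compartment, was at 764, 776 and 758 CPM and at 771, 783 and 806 CPM, with overlapping groups (0.04, edgeR adjusted p = 0.373).

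Several BiP cofactors were lower. Sdf2l1, a partner of BiP's co-chaperones, was at 26.4, 27.0 and 27.4 CPM in wild-type and 18.1, 17.3 and 17.7 CPM in the other libraries. That is a fall of the whole group to 65.7% of wild-type (log2 fold change -0.61, SE 0.06, edgeR adjusted p = 9.74e-07). Manf, a secreted stress-induced BiP cofactor, went from 69.8, 75.5 and 69.1 to 58.4, 55.3 and 56.3 CPM (-0.34). Hyou1 (GRP170), the nucleotide exchange factor of BiP, went from 147, 148 and 151 to 127, 131 and 131 CPM (-0.20). The co-chaperone Dnajb11 (ERdj3) fell slightly, from 155 ± 6.01 to 142 ± 3.36 CPM (-0.13, edgeR adjusted p = 0.0194), a call lost without wild-type replicate 1 (adjusted p = 0.0972) or wild-type replicate 3 (0.0538). Dnajc3 (p58IPK), a co-chaperone and inhibitor of PERK, went the other way on counts, from 102, 102 and 95.1 to 116, 115 and 119.5 CPM (0.23, edgeR adjusted p = 3.76e-04). With the length trend removed Dnajc3 lay at 0.06, not called (edgeR adjusted p = 0.241). It was called lower with length and GC trends removed (-0.13, edgeR adjusted p = 0.00476).

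The lectin chaperones, which bind glycoproteins in the same folding cycle, moved in opposite directions on counts. Calr, the soluble one, was at 1308, 1318 and 1318 CPM in wild-type and 1117, 1036 and 1107 CPM in the libraries labelled Git2-knockout, a fall to 82.7% (log2 fold change -0.27, SE 0.04, edgeR adjusted p = 1.29e-05). Canx, the membrane-bound one, was at 542, 534 and 528 CPM and at 635, 594 and 615 CPM, a rise to 115% (0.20, SE 0.04, edgeR adjusted p = 2.91e-04). Neither gene's groups overlapped. With the length and GC trends removed from each library, Calr lay at -0.21 and Canx at -0.16 (edgeR adjusted p = 1.28e-04), both below 0.

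Of the 5 disulfide enzymes 0 rose and 3 fell on counts, where 29.6% of all genes tested rose and 27.4% fell. Creld2, an unfolded protein response target with disulfide isomerase activity, was at 47.0, 43.9 and 47.8 CPM in wild-type and 30.8, 29.6 and 30.0 CPM in the other libraries. It had the largest fall of all members, to 65.2% of wild-type (95% interval 60.0% to 70.7%, log2 fold change -0.62, SE 0.06, edgeR adjusted p = 1.60e-07). Pdia6 fell from 221 ± 1.36 to 185 ± 4.05 CPM (-0.26) and P4hb from 2389 ± 12.5 to 2098 ± 21.7 CPM (-0.19). Pdia3, the partner of the lectin chaperones, was at 634 ± 6.65 and 635 ± 13.8 CPM (95% interval 94.9% to 106% of wild-type), and Pdia4 at 143 ± 2.45 and 137 ± 4.4 CPM, both not called. Pdia3 was called higher on log2(TPM + 1) (0.16, limma-trend adjusted p = 9.62e-04). With length and GC trends removed it was called lower (-0.12, edgeR adjusted p = 8.07e-04). P4hb was at 1719.7 and 1689 TPM, with a log2(TPM + 1) difference of -0.03 (limma-trend adjusted p = 0.445).

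Among the 10 ERAD genes Sel1l, Edem1 and Edem3 rose, Syvn1, Herpud1 and Edem2 fell, and 4 were not called. The shares of rises and falls, 30% each, lay near the 29.6% and 27.4% of all genes tested. Sel1l, the adaptor that brings substrates to the ligase HRD1, was at 212, 213 and 200.2 CPM in wild-type and 249, 280.3 and 270.2 CPM in the libraries labelled Git2-knockout (log2 fold change 0.35, SE 0.05, edgeR adjusted p = 1.14e-05). Syvn1, which encodes HRD1 itself, was at 66.6, 68.8 and 67.1 CPM and at 63.0, 55.3 and 56.9 CPM, a fall (-0.21, edgeR adjusted p = 0.00381) whose call was lost with length and GC trends removed (-0.10, adjusted p = 0.111) and on log2(TPM + 1) (-0.06, limma-trend adjusted p = 0.328). Herpud1, a stress-induced scaffold of the same complex, went from 171, 171 and 179 to 153, 134 and 141 CPM (-0.28, edgeR adjusted p = 1.33e-04). Reads of Syvn1 can be mixed with those of Mrpl49, whose exons overlap it on the other strand by 91 nucleotides in the GENCODE annotation, because the strand setting is not given. The same holds for Pdia6 with Atp6v1c2 (50 nucleotides) and Derl2 with Mis12 (231 nucleotides).

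The EDEM proteins trim mannose from misfolded glycoproteins and so mark them for ERAD. Edem3 was at 66.1, 66.6 and 65.1 CPM in wild-type and 97.4, 91.5 and 87.5 CPM in the other libraries, a rise to 139.7% (log2 fold change 0.48, SE 0.05, edgeR adjusted p = 7.08e-07). Edem1 rose from 112 ± 1.97 to 127 ± 0.794 CPM (0.18). With the length trend removed Edem1 lay at -0.03, not called, and with length and GC trends removed at -0.13 (edgeR adjusted p = 0.00463). Edem2 fell from 92.9 ± 3.05 to 84.1 ± 2.32 CPM (-0.14, edgeR adjusted p = 0.0158), a call lost without wild-type replicate 3 (adjusted p = 0.0779). The derlins, channel components of ERAD, were not called. Derl1 was at 123 ± 1.63 and 124 ± 2.25 CPM, Derl2 at 39.9 ± 0.505 and 41.8 ± 3.54 CPM, and Derl3, known from secretory cells, too low for a difference to be detectable (0.731 ± 0.216 and 0.593 ± 0.151 CPM). Selenos, a selenoprotein that links derlins to the ATPase VCP, was at 41.6 ± 0.330 and 42.1 ± 3.15 CPM, not called (0.02, edgeR adjusted p = 0.839). It was called higher with the length trend removed (0.24, edgeR adjusted p = 4.99e-04) and with length and GC trends removed (0.14, 0.0195). On log2(TPM + 1) it was called higher too (0.17, limma-trend adjusted p = 0.0117).

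Of the sensors, PERK and ATF6 transcripts were higher on counts and the IRE1 paralogs were not called. Eif2ak3 was at 61.3, 62.6 and 59.2 CPM in wild-type and 70.4, 73.1 and 75.3 CPM in the libraries labelled Git2-knockout, a rise to 119% (log2 fold change 0.26, SE 0.05, edgeR adjusted p = 3.22e-04). Atf6 was at 57.7, 53.2 and 53.0 CPM and at 62.0, 68.8 and 73.1 CPM (0.32, SE 0.06, edgeR adjusted p = 3.62e-04). In both genes every library of one group lay above every library of the other. With the length trend removed Atf6 lay at 0.04 (edgeR adjusted p = 0.515), and with length and GC trends removed at -0.11 (0.0659), neither called. Eif2ak3 stayed called higher in these fits (0.13, edgeR adjusted p = 0.0173, and 0.16, 0.0026). Ern1 was at 24.3, 25.2 and 24.6 CPM and at 24.5, 27.8 and 28.9 CPM, with 1 library in the wild-type range (0.13, edgeR adjusted p = 0.107). Its adjusted p was 0.0235 without that library, replicate 1, 0.287 without Git2-knockout replicate 2 and 0.469 without replicate 3. Without a wild-type library it was 0.149 to 0.225. Ern2, the paralog of mucus-producing epithelium, was at 10.7 ± 0.417 and 10.5 ± 1.82 CPM (95% interval 83.0% to 116% of wild-type). Xbp1, the target of IRE1, went from 117 ± 3.42 to 104 ± 8.78 CPM, a small fall (-0.16, edgeR adjusted p = 0.0204) that was lost without wild-type replicate 1 (adjusted p = 0.0927) or without Git2-knockout replicate 2 (0.0914). Its TPM means were 108 in both groups.

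The 3 translocation genes, through which new proteins enter the compartment, also split. Sec61b, a small subunit of the channel, was at 40.0, 40.9 and 43.2 CPM in wild-type and 32.0, 26.7 and 29.7 CPM in the other libraries (log2 fold change -0.49, SE 0.07, edgeR adjusted p = 1.12e-05). The pore subunit Sec61a1 fell from 225 ± 2.28 to 208 ± 2.42 CPM (-0.11, edgeR adjusted p = 0.0198), a call lost without wild-type replicate 2 (adjusted p = 0.0667) or wild-type replicate 3 (0.0647). Ssr1, a subunit of the translocon-associated complex, was at 152, 152 and 149.9 CPM and at 183, 186 and 172 CPM (0.25, SE 0.04, edgeR adjusted p = 1.16e-04). With the length trend removed Ssr1 lay at 0.08 (adjusted p = 0.101), and with both trends removed at 0.05 (0.326), neither called.

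**Figure D4:**
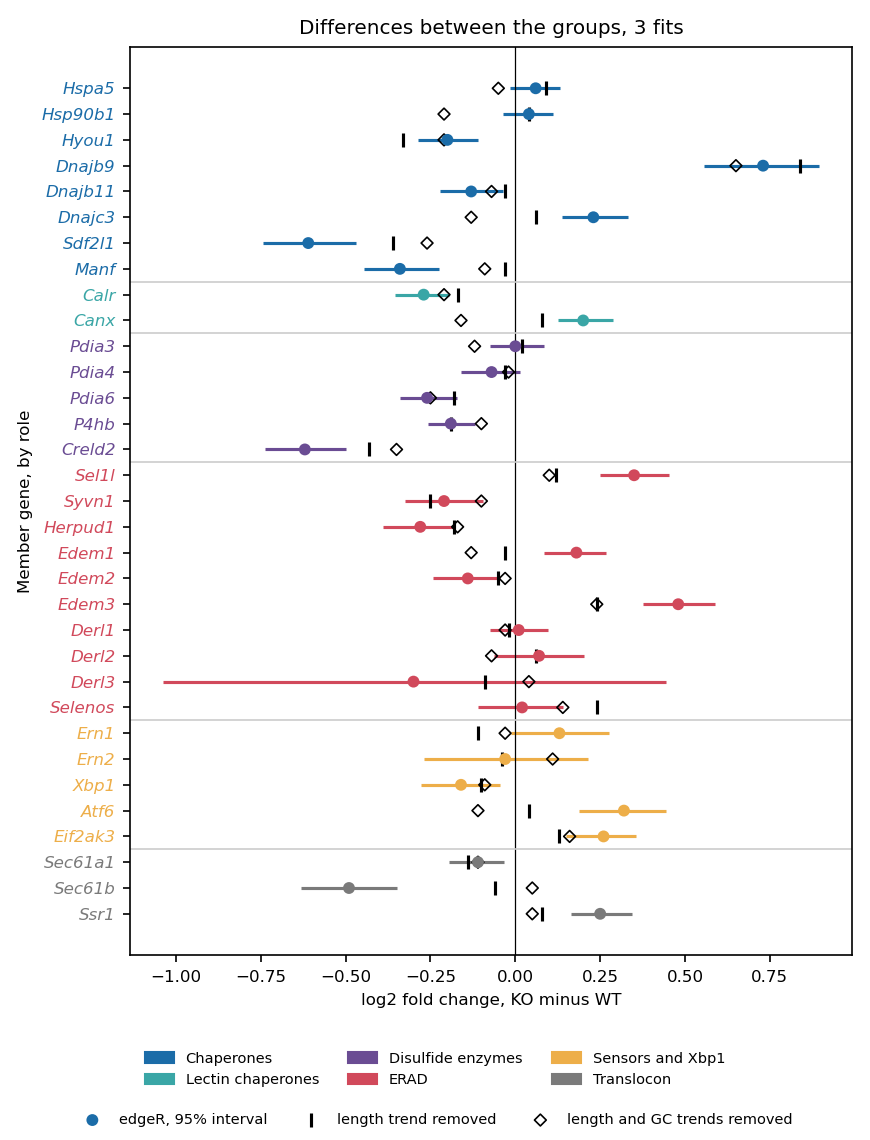
Log2 fold change of each member by role, with dots and lines for the edgeR estimate and its 95% interval, ticks after removal of a transcript length trend and diamonds after removal of length and GC trends. Dnajb9 stays at 0.65 or above in all 3 fits and Creld2 at -0.35 or below, while Canx, Dnajc3 and Atf6 cross 0.

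Direction varied with transcript length and base composition. Of the 12 members with transcripts over 3000 nucleotides 8 rose (66.7%) and 2 fell (16.7%), Hyou1 and Syvn1. Among all tested genes of that length 47.4% rose and 13.4% fell. Of the 11 members under 2000 nucleotides 8 fell (72.7%) and 1 rose, Dnajb9. Among all genes that short 49.9% fell and 9.76% rose. Across the 33 members the log2 fold change and length had a Spearman rho of 0.71, and log2 fold change and GC content a rho of -0.71, as a description over genes that share the same 6 libraries. For all genes the values were 0.49 and -0.49. ERAD genes and sensors held 8 of the 12 long transcripts and folding genes 3, so role and length cannot be told apart for most members. At 3000 nucleotides or less, 0 of 7 ERAD genes and sensors rose and 3 fell, and 1 of 12 folding genes rose and 7 fell.

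**Figure D5:**
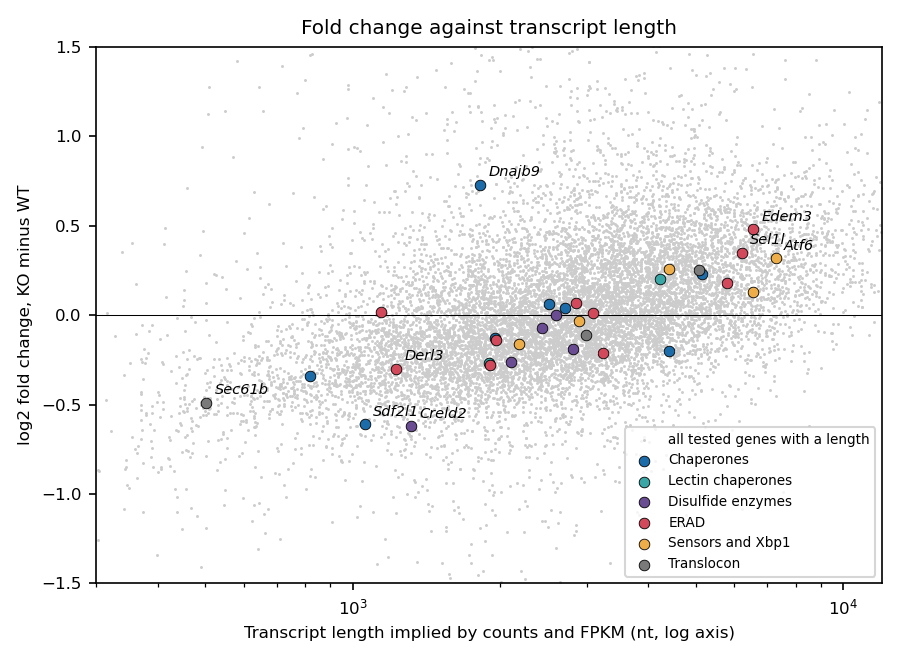
Log2 fold change (vertical) against transcript length implied by counts and FPKM (horizontal, log axis) for all tested genes with a length (grey) and the members (coloured by role); 254 genes lie outside the axes. Members rise with length as the grey cloud does, from Sec61b at -0.49 to Edem3 at 0.48, and Dnajb9, at 1816 nucleotides and 0.73, is the highest member.

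With the length trend removed from each library, 6 members were higher and 9 lower, where 27.0% of all genes were higher and 25.8% lower. With length and GC trends both removed 5 were higher and 13 lower, where the shares of all genes were 20% and 23.0%. The calls of Dnajb11, Dnajc3, Manf, Canx, Syvn1, Edem1, Edem2, Xbp1, Atf6, Sec61b and Ssr1 were lost or changed sign in either or both of these fits. A set of 9 members kept its direction and its call at an adjusted p of 0.05 in 18 of the 19 alternatives, all but the test against a 1.5-fold change. Dnajb9, Edem3, Eif2ak3 and Sel1l were higher among them, and Calr, Creld2, Herpud1, Pdia6 and Sdf2l1 lower. Their sizes shrank in part. Sel1l lay at 0.12 with the length trend removed (edgeR adjusted p = 0.00261) and at 0.10 with both removed (0.0118), and Edem3 at 0.24 in both fits (0.0103 and 0.0134). Atf6 lay at 0.04 and -0.11, Sec61b at -0.06 and 0.05, and Manf at -0.03 and -0.09, none of them called. Hyou1 was lower in both fits (-0.33 and -0.21) but lay at -0.03 on the log2(TPM + 1) scale. The Hspa5 difference was 0.09 (0.0106) and -0.05 (0.139), and Hsp90b1 lay at 0.04 and -0.21 (edgeR adjusted p = 7.41e-06).

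Of the 11 members with an ERSE or ERSE-II match, 6 fell (Calr, Creld2, Dnajb11, Herpud1, Pdia6 and Syvn1), 2 rose (Canx and Dnajc3) and 3 were not called, with a median log2 fold change of -0.21, beside the 29.6% higher and 27.4% lower of all genes. Of the 16 members with a promoter and no match 5 fell and 6 rose, with a median of 0.04. With length and GC trends removed, 7 of the 11 were lower and 0 higher, and of the 16 it was 4 and 5 (all genes 23.0% and 20%). On log2(TPM + 1) the 11 were divided. Canx (0.36), Dnajc3 (0.39), Hsp90b1 (0.2) and Hspa5 (0.22) were called higher there. Calr (-0.11), Creld2 (-0.45), Herpud1 (-0.12) and Pdia6 (-0.09) were called lower, and Derl3, Dnajb11 and Syvn1 were not called. Of all genes 42.4% were higher and 13.9% lower on that scale. The difference between the 11 and the 16 was not tested.

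The wider pathway was mixed too, and its counts are to be read beside the 29.6% of all genes that rose and the 27.4% that fell. Of 34 tested genes of other folding enzymes 11 rose and 13 fell. Erp29, a chaperone of secretory proteins, went from 229, 244 and 238 to 159, 141 and 149 CPM (log2 fold change -0.66, edgeR adjusted p = 1.52e-08), and the prolyl isomerase Fkbp2 fell by 0.77. Prkcsh, the beta subunit of glucosidase II, fell by 0.35, and Agr2, a disulfide isomerase needed for mucin, fell from 120.2, 123 and 131 to 96.5, 93.3 and 96.2 CPM (-0.39), which lay at -0.05 with the length trend removed, at -0.21 with length and GC trends removed (adjusted p = 7.37e-04) and at -0.23 on log2(TPM + 1). Ero1a, the oxidase that recharges the disulfide isomerases, rose from 174, 176 and 172 to 242, 241 and 227 CPM (0.44, edgeR adjusted p = 2.52e-07) and lay at 0.16 with length and GC trends removed. Of 27 other ERAD genes 8 rose and 10 fell. The ubiquitin-conjugating enzyme Ube2j1 (0.40) and the HRD1 cofactor Fam8a1 (0.27) rose, and the lectin Os9 (-0.22) and Aup1 (-0.27) fell, although Fam8a1 lay at -0.16 and Aup1 at 0.01 with both trends removed.

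In the oligosaccharyltransferase, which attaches N-glycans, 3 of 11 genes rose and 6 fell, with the small subunits Ost4 (-0.50) and Dad1 (-0.48) falling, as did Ddost (-0.28), and Magt1 rising (0.33). With the length trend removed Ost4 lay at -0.06 and Dad1 at -0.12, and with both trends removed Magt1 lay at -0.04. Of 21 other targeting and translocation genes 5 rose and 12 fell. Sec62 (0.35) and Ssr3 (0.32) rose, and both lay below 0 with length and GC trends removed (-0.14 and -0.05). Ssr4 fell by 0.34 and lay at -0.02 with the length trend removed. Srp54a fell by 0.70, but its reads can be shared with near-identical Srp54 copies.

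Of 11 genes that act downstream of PERK 3 rose and 4 fell. Atf4, the transcription factor whose translation PERK favours, was at 381, 382 and 374 CPM in wild-type and 389.9, 353 and 369 CPM in the libraries labelled Git2-knockout (log2 fold change -0.03, edgeR adjusted p = 0.53), and lay at 0.22 with length and GC trends removed (4.35e-06). Its targets Atf3 (627 ± 8.07 and 627 ± 27.7 CPM) and Trib3 (2.69 ± 0.149 and 2.55 ± 0.532 CPM) were not called on counts. Trib3 had only 32 to 53 estimated reads per library. Atf3 was called higher with the length trend removed (0.10, edgeR adjusted p = 0.0107) and with both trends removed (0.08, 0.0429). On log2(TPM + 1) Atf3 was called higher too (0.16, limma-trend adjusted p = 0.0025). Ddit3, which encodes the death-promoting factor CHOP, fell from 63.9, 67.0 and 65.5 to 56.6, 56.7 and 55.3 CPM (-0.22, edgeR adjusted p = 9.89e-04), and lay at 0.05 with the length trend removed and at 0.13 with both trends removed (0.0175). Ppp1r15a (GADD34), the stress-induced phosphatase subunit that reverses eIF2alpha phosphorylation, fell from 109, 109 and 113 to 83.4, 81.7 and 82.5 CPM (-0.42, edgeR adjusted p = 6.70e-07), and Ppp1r15b, its constitutive counterpart, rose (0.21, and 0.02 with the length trend removed). Cebpg rose (0.22, and 0.07 with the length trend removed). Among 15 partners of the sensors 1 rose and 8 fell. The rise was in Mbtps2, the second protease that cleaves ATF6, from 22.8, 20.5 and 20.1 to 39.5, 36.3 and 33.3 CPM (0.78, edgeR adjusted p = 2.19e-07). The apoptosis regulators Bax (-0.56) and Bok (-0.58) and the liver and gut factor Creb3l3 (-0.27) fell, and lay at -0.12, -0.27 and -0.06 with length and GC trends removed.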

How the data were processed

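Poly(A)-selected RNA of 3 wild-type libraries and 3 libraries labelled Git2-knockout was sequenced, and groups and replicate numbers come from the sample titles. HISAT, Bowtie2, RSEM and the build GRCm39 are named in the submitters' processing notes; the annotation and strand setting were not given in the sources used here. Per the file headers the authors deposited read counts per gene, treated here as estimated counts. Between 58.9% and 69.2% of a library's values had a fractional part (tolerance 0.001). FPKM and TPM values were deposited by the authors beside them, per the file headers. After rounding, tests ran in edgeR 4.0.16 under R 4.3.3 (filterByExpr, TMM, robust quasi-likelihood fit, two-sided tests, no covariates), with Benjamini-Hochberg adjustment over 13558 genes. The SE of a log2 fold change was derived from its F statistic, and 95% intervals use the fit's t distribution. Total estimated counts, 16284414 to 19106581 per library, set the precision of low genes.

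The members and lists were chosen with earlier results of these data known, and names follow a written rule: all members, up to 4 called genes per wider list by smallest p, and a few fixed genes. Alternatives were other scalings, DESeq2 1.42.0, limma 3.58.1 (voom, and trend on log2(TPM + 1) or log2(TPM + 0.1)), filters, a replicate block, leaving out each library, a test against 1.5-fold, and loess removal (span 0.5) of trends in length (from counts and FPKM, 93.1% of tested genes) and GC (GENCODE transcripts, 97.9%). The joint removal fitted each trend on what the other left, a choice made after a sum of separate trends was seen to over-correct, after which log2 fold change had a Spearman rho of 0.01 with length and -0.01 with GC over the tested genes. Genes with no length or GC value were left unadjusted. Chi-square per degree of freedom was 1.58 to 7.21 between replicates and 30.3 to 43.2 between groups. The highest values between replicates were those of Git2-knockout replicate 1 against replicate 2 (7.21) and replicate 3 (5.34). The other replicate pairs lay at 1.58 to 2.87. Each library was counted as a replicate, although these values cannot show whether the libraries are of different mice. The steps were tested on simulated data. Promoter sequences are RefSeq's on GRCm38.p6.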

Additional observations from a re-analysis of the deposited data

How the results depend on the processing

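RLE or upper quartile scaling, DESeq2, limma-voom, no filter and a filter of 5 CPM in 3 libraries gave the same 9 rises and 14 falls by count. With library totals in place of TMM, 11 members rose and 10 fell, and 2 ERAD genes and sensors fell in place of 4. The replicate block gave 9 rises and 14 falls too. Deviations of same-numbered libraries correlated at -0.00113 to 0.0498, and those of different-numbered ones at -0.0682 to 0.033. No strong shared replicate effect was seen, but such values cannot show whether the samples were paired. Leaving out each library in turn gave 9 to 10 rises and 11 to 14 falls, with 7 to 8 folding genes lower and 3 higher in each, and 5 to 6 ERAD genes and sensors higher and 3 to 4 lower. With the length trend removed 9 members fell, 2 of them ERAD genes or sensors. With length and GC trends removed 5 rose (1 folding gene) and 2 ERAD genes or sensors fell. On log2(TPM + 1), and likewise on log2(TPM + 0.1), 16 rose and 7 fell (6 and 5 folding genes, 9 and 1 ERAD genes or sensors). edgeR's test against a 1.5-fold change called 0 members in either direction and in either set, and 1 (Dnajb9) at an unadjusted p under 0.05.

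Against the TMM fit on counts, 9 genes changed sign where either that fit or the alternative called them, and the cause was not tested. With length and GC trends removed Hsp90b1 lay at -0.21, Dnajc3 at -0.13, Canx at -0.16, Pdia3 at -0.12, Edem1 at -0.13 (-0.029 with length alone), Atf6 at -0.11 and Sec61b at 0.054. On log2(TPM + 1) or log2(TPM + 0.1) Dnajb11 lay at 0.025 and Sec61a1 at 0.047. Between alternatives more did: Hspa5, Ern1, Derl1 and Derl2 were called higher on log2(TPM + 1) (0.22, 0.24, 0.17 and 0.24) and lay at -0.05, -0.03, -0.03 and -0.07 with length and GC trends removed, not called. Derl3, with at most 18 reads in a library, is the member whose depth limits what can be seen.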

Other observations

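Outside the 33 members, 38 genes had an exact ERSE or ERSE-II match in the promoter window, and 18 of them were expressed enough to test. Of these 5 rose, 5 fell and 8 were not called in the libraries labelled Git2-knockout (edgeR, Benjamini-Hochberg adjusted p of 0.05), with a median log2 fold change of -0.01. With length and GC trends removed 4 were higher and 6 lower. They include the oligosaccharyltransferase subunit Krtcap2, the oxidase Ero1b and the mannosyltransferase Alg12, named after their values were seen.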
